A study of Homo sapiens with 4 samples.

Results

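The MYC network is a small family of transcription factors that share binding partners and DNA sites. Its 10 genes studied here, MYC, MAX, MXD1, MXD3, MXD4, MXI1, MNT, MLX, MGA and MLXIP, were taken by name from the 55764 gene names in the expression table. All 10 were found, and all 10 had a mean of at least 1 FPKM (fragments counted per length of the gene and per depth of the library), so that each was among the 14306 genes tested. The cells were TE5, a line derived from a human oesophageal squamous cell carcinoma. In 2 libraries the cells carried a lentiviral vector in which a CMV promoter, active in most cell types, drives human ETS1, a transcription factor of the ETS family. In the other two, the controls, the cells carried the empty backbone and their genotype is labelled WT. Both groups were infected and selected for stable carriage, and bulk RNA was sequenced, so the comparison asks how transcript levels differ between cells that carry the ETS1 vector and cells that carry the backbone. The labels number the libraries 1 and 2 within each group and do not say whether they came from separate cultures, so p-values measure only the spread between these libraries, which may be technical. They do not say either whether the selected cells were a pool or 1 clone.

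MYC binds DNA as a pair with MAX, at the E-box (CACGTG), and such pairs raise the transcription of genes for growth, above all for making ribosomes and nucleotides. MAX also pairs with the MXD proteins, MXI1 and MNT, which bind the same sites and bring in the SIN3 corepressor and its histone deacetylases, and with MGA, the scaffold of a Polycomb complex called PRC1.6. MLX, a relative of MAX, pairs with MLXIP (MondoA), which responds to glucose phosphates and drives genes such as TXNIP, and MLX can also pair with some MXD proteins and with MNT.

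Several network genes carry the E-box of their own family near their start, and these stretches are shown because they are the letters at which such pairs can bind. RefSeq promoter windows (GRCh38.p14), from 250 bases before to 50 bases after each annotated start, were found for 9 of the 10 members, all but MYC, with 14 windows in all. CACGTG, which reads the same on both strands, was in 3 of these 14 windows and in 2548 of all 35116 windows (7.26%). The sequences are printed 5′ to 3′ along the gene's own strand, with the E-box in capitals. That of MXD4 lies within chr4:2262322-2262359 (minus strand) and begins 238 bases before the start, near the edge of its window. That of MNT lies within chr17:2401228-2401273 (minus strand) and begins 193 bases before the start, and that of MLX lies within chr17:42567030-42567075 (plus strand) and begins 50 bases before it.
MXD4: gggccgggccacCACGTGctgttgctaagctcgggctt
MNT: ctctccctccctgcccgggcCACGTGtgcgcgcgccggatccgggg
MLX: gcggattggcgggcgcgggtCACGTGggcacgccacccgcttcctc
A core to which ETS proteins bind, CCGGAAGT on either strand, was in 0 of the 14 member windows and in 1453 of all windows (4.14%). A match of letters is a description of the window, not a measured binding site. The 3 genes whose windows hold an E-box did not move alike, as MXD4 was lower, MNT higher and MLX not past the threshold in the values given for each gene.

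ETS1 itself had 0.491 and 0.509 FPKM in the controls and 1.84 and 1.87 FPKM in the ETS1 libraries, so the labels matched the gene that was introduced (limma, an adjusted p of 0.000704). The libraries held between 40356722 and 57269982 reads, recovered from the steps of the FPKM values, and the ETS1 libraries were the deeper ones. Of 8 epithelial markers, 3 reached 1 FPKM as a mean (KRT8, KRT18 and EPCAM), with a summed level of 16.1 to 16.3 FPKM in the controls and 16.9 to 17.0 FPKM in the ETS1 libraries. The sum covers unlike moves, as KRT8 went from 3.91 and 3.87 FPKM to 6.48 and 6.59 FPKM and KRT18 from 10.2 and 10.6 FPKM to 8.35 and 8.29 FPKM. The squamous markers KRT5, KRT14 and TP63 were at 0 in both controls and below 0.1 FPKM in the ETS1 libraries, so the labelled cell type was not borne out by its defining markers. Fibroblast markers summed to 2.13 to 2.29 FPKM in the controls and 3.09 to 3.19 FPKM in the ETS1 libraries, nearly all of it COL1A1, and the immune markers PTPRC, CD3E, CD68 and LYZ stayed below 0.1 FPKM. The endothelial markers CDH5 and VWF were below 0.1 FPKM in all 4 libraries. The part of other cells in the results was not tested. In bulk RNA, fewer cells of a type and less RNA per cell cannot be told apart.

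Of the 10 network genes, 2 rose and 3 fell in the ETS1 libraries, and 5 did not pass the threshold, an adjusted p under 0.05 from limma with Benjamini-Hochberg adjustment over all genes tested. MXD3 and MNT, which encode repressors, were the ones that rose. MAX, MLXIP and MXD4 fell, and MYC did not pass. Over all tested genes 30.7% were called higher and 28.4% lower, so both shares of the 10 members were near the background. For 8 of the 10 the values of the groups did not overlap, against 82% of all tested genes. The members had a median log2 change of -0.11, beside 0.016 for all tested genes. Log2 changes here compare log2(FPKM + 1) in ETS1 with control libraries, unless another setting, the authors' values or a ratio is named. The scale of log2(FPKM + 1) understates the change of genes at a few FPKM. The authors' deposited table calls 7 of the 10, with the same 2 higher and with MYC and MGA added to the lower ones, where it calls 51.2% of its genes in either direction. The changes were small, as 18.1% of the tested genes changed at least as much as MXD3, the member with the largest change. The plot of FPKM by library gives all 10 genes side by side.

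**Figure D1:**
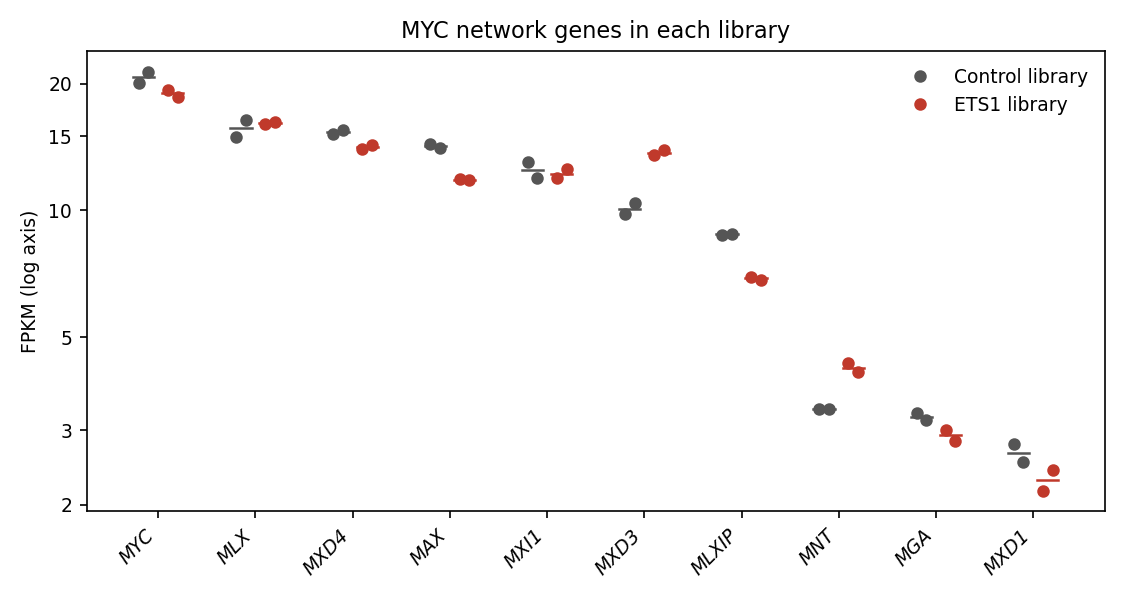
FPKM (log axis) of the 10 MYC network genes in each of the 2 control (grey) and 2 ETS1 (red) libraries, ordered by control mean; points are libraries and short lines are group means. MXD3 rose from 10.1 to 13.7 FPKM, and MAX and MLXIP fell, while MXI1 and MLX overlapped between groups.

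MYC was the most abundant network transcript in every library. It had 20.1 and 21.4 FPKM in the controls and 19.4 and 18.6 FPKM in the ETS1 libraries. Both ETS1 values lay below both control values, and the nearest values of the groups were closer than the controls were to each other. The mean was 20.7 ± 0.931 FPKM (SD, n = 2) in the controls and 19.0 ± 0.568 FPKM (SD, n = 2) in the ETS1 libraries, a ratio of 0.916. The log2 change of MYC was -0.12 with a standard error of 0.043, which did not pass (limma adjusted p = 0.0653). It rested on 2430 to 3334 reads per library, for which counting alone gives an error of 1.73% to 2.03%. The call and the size both turned on the fit. The change of MYC was -0.012 with the median of its neighbours removed, -0.052 with a trend on gene length and GC content removed, -0.064 under quantile normalization and -0.076 without control 2, and none of these passed (limma adjusted p = 0.815, 0.337, 0.233 and 0.19). Without control 1 the change of MYC was -0.16 and passed (limma adjusted p = 0.0318), and voom, limma's model for counts, gave -0.13 on the recovered reads (adjusted p = 0.0305). In the authors' deposited table MYC passes, at -0.14 on the log2 scale and an adjusted p of 0.037. The paralogues differed in level and behaviour. MYCN was at 0.0950 and 0.174 FPKM in the controls and 0.368 and 0.380 FPKM in the ETS1 libraries, too low to be tested. MYCL, at 1.25 to 1.54 FPKM, overlapped between groups (log2 change -0.012, limma adjusted p = 0.913).

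The genes on either side of MYC fell by far more than MYC did. MYC lies on chromosome 8 from 127735434 to 127741434 (plus strand, GENCODE 29 on GRCh38), and PVT1, a long non-coding RNA gene, starts 53.1 kb beyond its end. PVT1 had 8.99 and 8.82 FPKM in the controls and 4.24 and 4.36 FPKM in the ETS1 libraries, a log2 change of -0.90 with a standard error of 0.036 (limma adjusted p = 0.000439). FAM84B, the nearest tested coding gene before MYC, changed by -0.91, and TRIB1, which encodes a pseudokinase, by -1.03. SQLE, an enzyme of cholesterol synthesis, changed by -0.77, and FAM49B, the nearest tested coding gene beyond PVT1, by -0.43. From TRMT12 to FAM49B, a stretch of 5.57 Mb whose ends were picked after the values were seen, limma called 9 of the 10 coding genes besides MYC lower, and their median change was -0.64. The tenth, RNF139, had -0.17 (limma adjusted p = 0.0812). On both sides of the stretch the signs changed, with FAM91A1 at 0.41 and ASAP1 at 0.23, both called higher. The median log2 change of tested coding genes other than MYC was -0.57 within 3.5 Mb (12 genes) and -0.11 within 5 Mb (22 genes). Within 2.5 Mb it was -0.91 (3 genes), so the value of the local median depends on the window. MYC was refitted only with the 5 Mb median removed. The medians of both narrower windows lay below the change of MYC, so removing either would turn its sign. Chromosome 8 as a whole had a median of -0.15 over 381 tested coding genes, of which 62.2% had a negative change. Whether the number of copies of this stretch differs between the groups was not tested.

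**Figure D2:**
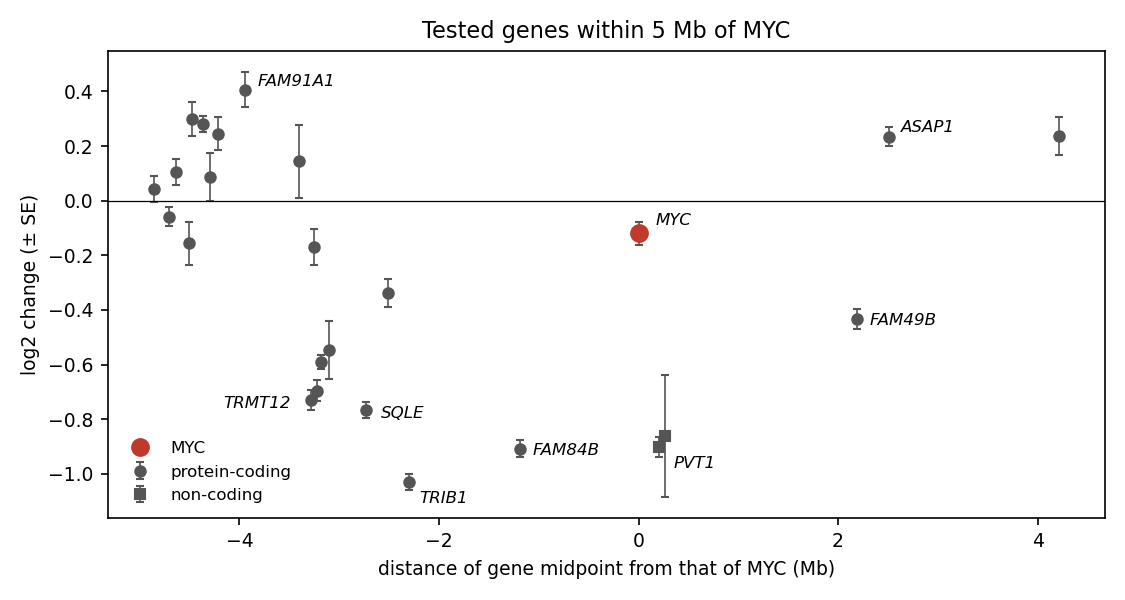
The log2 change (ETS1 minus control, ± SE from limma) of each tested gene within 5 Mb of MYC (circles coding, squares PVT1 and a small RNA gene inside it), against the distance of its midpoint from that of MYC in Mb. MYC (red) stands at -0.12, while PVT1, FAM84B and TRIB1 around it stand near -0.9 or lower and the outermost genes lie around 0 or above.

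MAX, the partner that MYC, the MXD proteins, MNT and MGA share, fell. It had 14.4 and 14.1 FPKM in the controls and 11.9 and 11.8 FPKM in the ETS1 libraries. The groups were well apart, and the ETS1 libraries agreed within 0.158% of each other. The mean of MAX fell by 16.7%, with a log2 change of -0.24 (standard error 0.030, limma adjusted p = 0.00271). It passed under all 16 other settings tried, which gave changes from -0.38 to -0.23. MAX lies on chromosome 14 (65006174 to 65102695, minus strand), where 14 of 44 tested coding genes within 5 Mb had a negative change and their median was 0.14, so MAX moved against its neighbours. With that local median removed the change of MAX was -0.38. In the controls MAX ranked 4 in level among the members, and in the ETS1 libraries it ranked 6, below MXD3 and MXI1.

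The 5 genes of the repressors that pair with MAX and recruit SIN3 did not move together, as 2 rose, 1 fell and 2 did not pass. MXD3, a member of the MXD family expressed in dividing cells, had 9.79 and 10.4 FPKM in the controls and 13.5 and 13.9 FPKM in the ETS1 libraries. Both ETS1 values were above both controls, and the gap exceeded the spread of either group. The log2 change of MXD3 was 0.41 with a standard error of 0.041 (limma adjusted p = 0.00158), a mean 35.8% higher. The authors' deposited table also gives 0.41. MXD3 lies on chromosome 5 (177301461 to 177312757, minus strand) among genes whose median change was 0.008. Parts of its exons are shared with RAB24 (18.0% of its exon bases, same strand) and PRELID1 (22.5%, opposite strand). Whether reads were counted by strand is not given in the sources used here. RAB24 did not pass (0.10, limma adjusted p = 0.214) and PRELID1 fell (-0.33, limma adjusted p = 0.00114). The part of shared reads in the change of MXD3 was not tested.

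MNT, the broadly expressed antagonist of MYC, was at 3.38 FPKM in both controls and at 4.34 and 4.12 FPKM in the ETS1 libraries. The controls were nearly equal and both ETS1 libraries were above them. The log2 change of MNT was 0.26 with a standard error of 0.043 (limma adjusted p = 0.00667), a ratio of means of 1.25. On chromosome 17 (2384060 to 2401118, minus strand) the 86 tested coding genes around MNT had a median of 0.13, and 23 of them had a negative change. With this median removed MNT had 0.12 and sat at the threshold (limma adjusted p = 0.05), which did not pass.

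MXD4, the most abundant of the repressor genes, had 15.2 and 15.5 FPKM in the controls and 14.02 and 14.28 FPKM in the ETS1 libraries. The groups did not overlap, but the gap was small. The log2 change of MXD4 was -0.11 with a standard error of 0.031 (limma adjusted p = 0.0332). This call was fragile. Without control 2, ETS1 1 or ETS1 2 the limma adjusted p of MXD4 was 0.0992, 0.178 or 0.115, and with no filter on low values it was 0.0601. MXD4 lies on chromosome 4 (2247432 to 2262294, minus strand), and the genes around it had a median of 0.0023.

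MXD1, the founding MXD gene and a marker of cells that leave the cycle, was the scarcest member, with 2.79 and 2.52 FPKM in the controls and 2.16 and 2.42 FPKM in the ETS1 libraries. The groups did not overlap, yet the replicates differed from each other nearly as much as the groups did, and the log2 change of -0.15 (standard error 0.067) did not pass (limma adjusted p = 0.107). MXD1 rested on 705 to 865 reads, the fewest of the members. It passed as lower under voom (-0.21, adjusted p = 0.0363), with the local median removed (-0.19, 0.0492) and with the length and GC trend removed (-0.26, 0.0171). Without control 1 or ETS1 1 its change shrank to -0.10 or -0.096 and did not pass (limma adjusted p = 0.323 and 0.383). MXI1, also called MXD2, had 13.1 and 11.9 FPKM in the controls and 11.95 and 12.53 FPKM in the ETS1 libraries, which overlapped. Its log2 change was -0.026 (limma adjusted p = 0.694). MXI1 lies on chromosome 10 (110207605 to 110287365, plus strand) where 3 of 20 tested coding genes around it had a negative change and the median was 0.19, and with that median removed MXI1 passed as lower (-0.22, limma adjusted p = 0.0148).

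MGA, the largest protein of the network, had 3.31 and 3.17 FPKM in the controls and 3.00 and 2.84 FPKM in the ETS1 libraries. The groups did not overlap, and the log2 change of -0.11 (standard error 0.048) did not pass (limma adjusted p = 0.1). Of all members it had the local median farthest from 0. MGA lies on chromosome 15 (41621224 to 41773081, plus strand), where 67 of the 70 tested coding genes within 5 Mb had a negative change and their median was -0.34. Chromosome 15 as a whole had a median of -0.23, with 81.4% of its 344 tested coding genes negative. Relative to its neighbours MGA was higher, by 0.23 (limma adjusted p = 0.00771), which turns its direction. With a trend on gene length and GC content removed instead, the change was -0.32 (limma adjusted p = 0.00323). MGA passed as lower under voom (-0.15, adjusted p = 0.0187) and quantile normalization (-0.15, 0.0482). The direction of MGA is therefore not settled by these libraries, and which setting fits the cells was not tested.

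**Figure D3:**
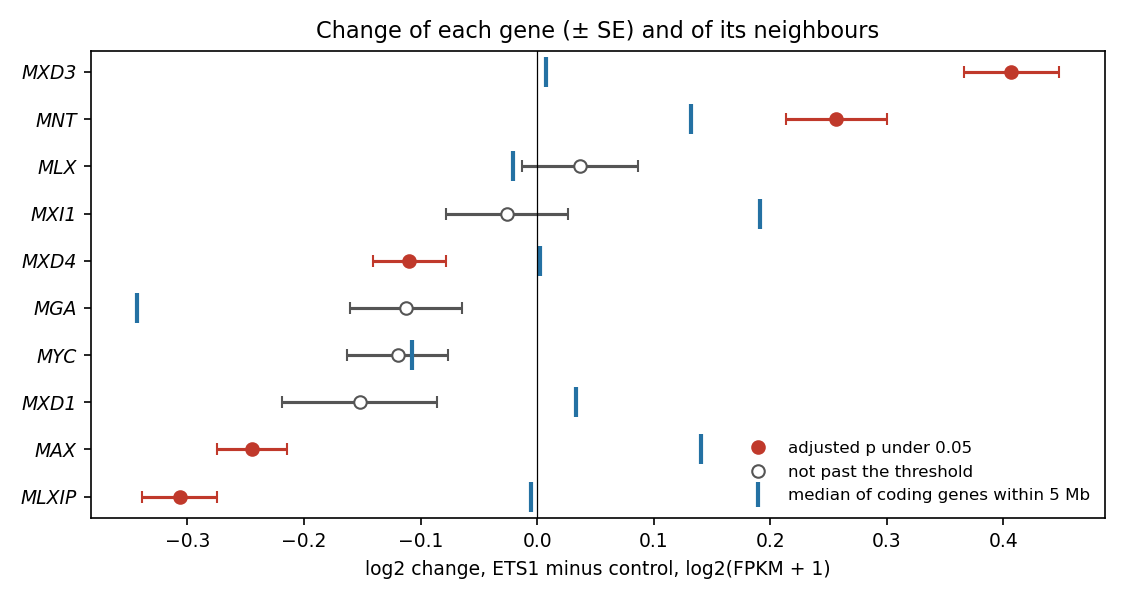
The log2 change of each network gene (points, ± SE from limma; red where the adjusted p is under 0.05, open where not) beside the median change of tested coding genes within 5 Mb of it (blue bars). MXD3 and MLXIP stand far from neighbours whose medians are near 0, MAX stands opposite to its neighbours, MYC stands at the 5 Mb median of its own and MGA stands above its own.

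In the glucose-responsive branch MLXIP fell and MLX did not pass. MLXIP had 8.75 and 8.79 FPKM in the controls and 6.95 and 6.85 FPKM in the ETS1 libraries. The replicates lay close together and the groups were well apart. Its mean fell by 21.3%, with a log2 change of -0.31 (standard error 0.032, limma adjusted p = 0.00181). MLXIP passed under all 16 other settings, with changes from -0.40 to -0.30. It lies on chromosome 12 (122078722 to 122147347, plus strand), and the genes around it had a median of -0.0057. MLXIPL (ChREBP), its paralogue and also a partner of MLX, fell too, from 9.54 and 9.69 FPKM to 7.13 and 6.81 FPKM (log2 change -0.41, standard error 0.037, limma adjusted p = 0.00125). MLX had 14.97 and 16.44 FPKM in the controls and 16.1 and 16.2 FPKM in the ETS1 libraries. Both ETS1 values of MLX lay between the controls, with a log2 change of 0.037 (limma adjusted p = 0.551). PSMC3IP, which was called higher (0.22, limma adjusted p = 0.00408), shares 18.1% of the exon bases of MLX on the opposite strand.

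Of the 4 listed targets of MLXIP and MLX, 2 were called higher and 0 lower, with a median of 0.13. Over all tested genes 30.7% were called higher and 28.4% lower, and 4 genes are too few to set apart from these shares. TXNIP, the best known of them, whose protein limits glucose uptake, had 8.01 and 8.30 FPKM in the controls and 8.86 and 8.60 FPKM in the ETS1 libraries, and its log2 change of 0.087 did not pass (limma adjusted p = 0.0967). ARRDC4, its relative, rose by 0.17 (limma adjusted p = 0.0207). KLF10, a zinc finger factor that other signals also induce, rose from 6.54 and 6.50 FPKM to 16.4 and 17.7 FPKM, a log2 change of 1.26. ARRDC4 lies on chromosome 15 and KLF10 on chromosome 8, and neither of the other two passed. Without control 2, ETS1 1 or ETS1 2, 1 of the 4 was called higher.

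FPKM is per length, so members can be set against each other within a library. MYC led with a mean level of 20.7 FPKM in the controls, followed by MLX (15.7) and MXD4 (15.4), which overlapped each other. MAX, MXI1, MXD3 and MLXIP came next, from 14.2 to 8.77 FPKM, and MNT, MGA and MXD1 were lowest, from 3.38 to 2.65 FPKM. In the ETS1 libraries MXD3 passed MXI1 and MAX and ranked 4, at 13.7 FPKM, and no neighbours in the order overlapped. The summed FPKM of the 10 genes was 106 and 108 in the controls and 103 and 104 in the ETS1 libraries. The share of MXD3 in that sum was 9.27% and 9.67% in the controls and 13.1% and 13.4% in the ETS1 libraries, and the share of MAX was 13.6% and 13.1% against 11.5% and 11.4%.

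The summed FPKM of MXD1, MXD3, MXD4, MXI1 and MNT over that of MYC describes the balance of repressor and activator transcripts. It was 2.20 and 2.05 in the controls and 2.37 and 2.54 in the ETS1 libraries. Both ETS1 libraries were above both controls, with a ratio of means of 1.16. The two-sided exact permutation p was 0.333, which is the lowest that this test can reach with 2 libraries against 2, so it can call no ratio here. Without MXI1 the ratio of means was 1.19, without MNT 1.14 and with MGA added 1.15. No ratio without MXD3 was computed, and the mean of MXD3 alone went from 10.1 FPKM in the controls to 13.7 FPKM in the ETS1 libraries. How far the ratio rests on MXD3 was therefore not tested. The repressor sum itself was 44.2 and 43.8 FPKM in the controls and 45.99 and 47.24 FPKM in the ETS1 libraries. The remaining ratios were chosen after the values were seen. MYC over MAX was 1.40 and 1.52 in the controls and 1.64 and 1.57 in the ETS1 libraries. The summed partners of MAX over MAX were 4.70 and 4.86 against 5.77 and 5.80. MLXIP over MLX was 0.585 and 0.535 against 0.433 and 0.423. MXD3 over MXD4 was 0.646 and 0.669 against 0.964 and 0.973, a ratio of means of 1.47.

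**Figure D4:**
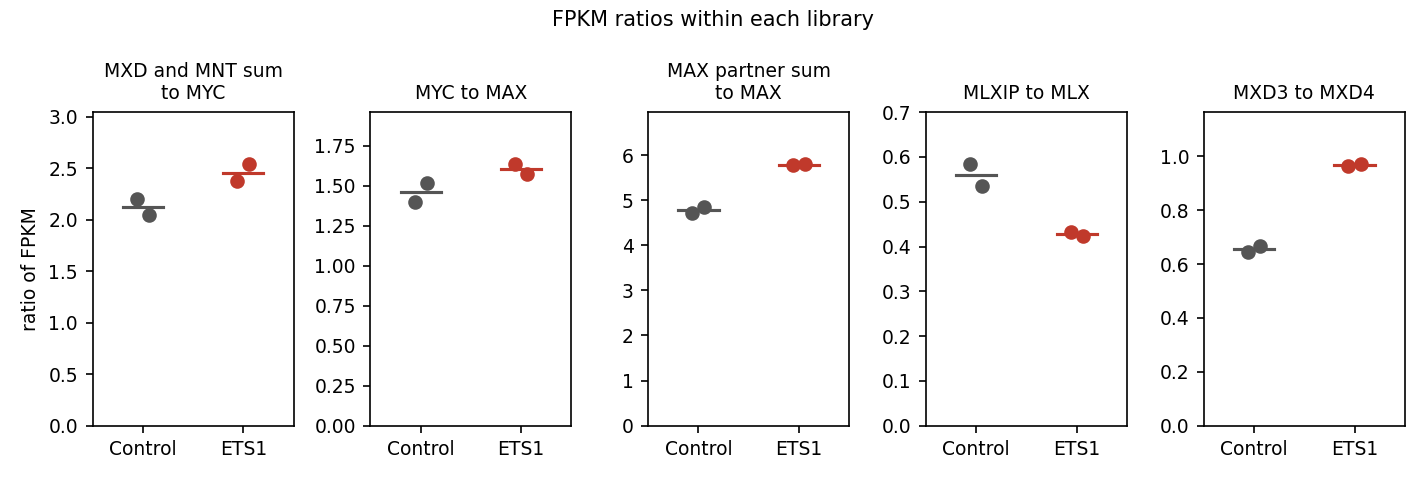
FPKM ratios of network genes within each library, with control libraries in grey, ETS1 libraries in red and short lines for group means; each vertical axis starts at 0. The MXD and MNT sum over MYC went from 2.20 and 2.05 to 2.37 and 2.54, and MXD3 over MXD4 from 0.646 and 0.669 to 0.964 and 0.973.

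Genes that act with the network were compared in lists drawn from its known biology, and each count is to be read against the 30.7% of all tested genes called higher and 28.4% called lower. Among 17 genes, the coactivators that MYC recruits and ZBTB17 (MIZ1), a DNA-binding partner through which MYC represses, 8 rose and 5 fell, with a median of 0.069. BPTF, a reader of histone methylation, rose by 0.52 and the acetyltransferase gene EP300 by 0.37. WDR5, which anchors MYC to chromatin, fell from 37.0 and 36.8 FPKM to 27.9 and 28.0 FPKM, a log2 change of -0.39. Limma adjusted p-values of these 3 genes were at most 0.00141. Without ETS1 2 the number called higher was 5. Of 16 genes that set the stability of the MYC protein, 6 rose and 5 fell, with a median of 0.087. SET, an inhibitor of the phosphatase that destabilises MYC, changed by -0.49 and the kinase gene PLK1 by 0.38. The number lower in this list was 3 without control 1 and 2 without ETS1 1 or ETS1 2. Protein levels were not measured.

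Of 18 genes that bind the MYC gene or its RNA or signal to it, 8 rose and 4 fell, with a median of 0.095. Besides PVT1, the largest changes were PUF60 (-0.49) and CNBP (-0.47), whose proteins bind the far-upstream and nuclease-hypersensitive elements before MYC, with limma adjusted p-values of 0.000648 and 0.00058. Outside chromosomes 8, 9 and 15, 1 of 14 in this list was lower. The SIN3 and NCOR corepressors, through which MXD proteins and MNT act, had 6 of 17 called higher, 5 lower and a median of 0.091. BRMS1L rose by 0.62, NCOR1 by 0.57 and ARID4B by 0.31. SIN3A, the scaffold itself, changed by -0.18 and was called lower, a gene named after its value was seen. The number lower was 3 without ETS1 2.

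Of 10 partners of MGA and MAX in PRC1.6, 2 rose and 3 fell, with a median of -0.030. RYBP rose from 7.87 and 6.96 FPKM to 10.8 and 11.3 FPKM (log2 change 0.52) and its paralogue YAF2 by 0.30, while the ubiquitin ligase gene RING1 fell by 0.23. The number higher was 4 under quantile normalization and 1 without control 2 or ETS1 2, and the number lower was 1 without ETS1 2. Germline genes, which PRC1.6 silences in somatic cells, were mostly below the filter, with 3 of 19 tested. Of those 3, ZCWPW1, a histone reader of meiosis, was called lower (-0.26, limma adjusted p = 0.00777) and the other two did not pass. Without ETS1 2, none of the 3 was called. With the length and GC trend removed 1 of the listed genes was called higher, and likewise 1 with no filter on low values. The 16 below the filter had no value above 0.808 FPKM in any library. The mean was higher in the ETS1 libraries for 12 of them, lower for 3 and equal for 1, with no test. The same shares over all genes below the filter were not computed. Without them these counts show no shift particular to the germline genes. Named after their values were seen, HORMAD1 had the widest difference, with means of 0.186 FPKM (control) and 0.773 FPKM (ETS1), and TAF7L was among the lower ones (0.491 and 0.468 FPKM).

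In each of the 4 lists of genes that MYC is known to activate, more genes were called lower than higher, where all tested genes had 28.4% lower and 30.7% higher. Of 41 tested genes of ribosome biogenesis, 36 fell and 2 rose, with a median log2 change of -0.31. LYAR, a nucleolar growth factor, had 33.1 and 33.0 FPKM in the controls and 21.1 and 21.0 FPKM in the ETS1 libraries. That is a log2 change of -0.63 with non-overlapping groups. NOP16, a ribosome assembly factor, changed by -0.62, and POLR1C, a subunit of RNA polymerases I and III, also by -0.62, with limma adjusted p-values of at most 0.000648 for the 3 genes. NCL, which encodes nucleolin, rose instead, from 91.9 and 93.5 FPKM to 125.0 and 124.7 FPKM (log2 change 0.43, limma adjusted p = 0.000605), as did the helicase gene DDX18 (0.26, named after its value was seen). The number lower was 35 of 39 outside chromosomes 8, 9 and 15, and 33 of 40 with the length and GC trend removed. It was 29 under quantile normalization and 31 at an adjusted p under 0.01.

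Of 28 genes of nucleotide and polyamine synthesis, 15 fell and 5 rose, with a median of -0.15. NME1, a nucleoside diphosphate kinase, had 48.8 and 45.2 FPKM in the controls and 23.5 and 23.2 FPKM in the ETS1 libraries, a log2 change of -0.98. IMPDH2, which commits purines to guanine nucleotides, changed by -0.75 and SRM, spermidine synthase, by -0.62. ODC1, the rate-limiting enzyme of polyamine synthesis and a classical MYC target, fell less, by 0.13 on the log2 scale (limma adjusted p = 0.0207). The number higher was 3 without ETS1 1, 2 without ETS1 2 and 2 with the local median removed, and it was 9 under quantile normalization.

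Of 13 genes of glucose and glutamine use, 7 fell and 2 rose, with a median of -0.099. The amino acid transporter genes SLC7A5 and SLC1A5 changed by -0.30 and -0.29 and the glucose transporter gene SLC2A1 by -0.30. The number higher was 0 with the local median removed, and 1 with no filter on low values or with a replicate block. Of 16 cell cycle targets, 8 fell and 3 rose, with a median of -0.11. CCND2 changed by -0.43, CDC25A by -0.37 and E2F2 by -0.36, while CDK4 overlapped between groups (-0.037, limma adjusted p = 0.367). Under quantile normalization 5 of the 16 were lower, and without ETS1 1 the number higher was 1. SKP2 stands both in this list and among the genes of MYC protein stability.

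Genes that MYC is known to repress went the other way. Of 9 tested, 7 rose and 0 fell, with a median of 0.41, where 30.7% of all tested genes rose. The 4 largest changes were in genes for inhibitors of cyclin-dependent kinases. CDKN2B had 2.79 and 2.46 FPKM in the controls and 4.97 and 4.94 FPKM in the ETS1 libraries, a log2 change of 0.72 (limma adjusted p = 0.00101). CDKN1B rose from 11.6 and 10.1 FPKM to 16.9 and 17.6 FPKM, by 0.63, and CDKN1C by 0.44. CDKN1A (p21), which p53 also induces, rose from 38.4 and 36.5 FPKM to 51.4 and 49.6 FPKM (log2 change 0.42, limma adjusted p = 0.0012). GAS1 (0.0021) and NDRG1 (0.076) did not pass. The number higher was 4 with no filter on low values, at an adjusted p under 0.01 and at a mean of at least 5 FPKM, where fewer genes were tested. These lists hold genes that factors other than MYC also control, and MYC itself did not pass the threshold in these libraries. Binding of MYC or ETS1 to any of them was not measured.

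**Figure D5:**
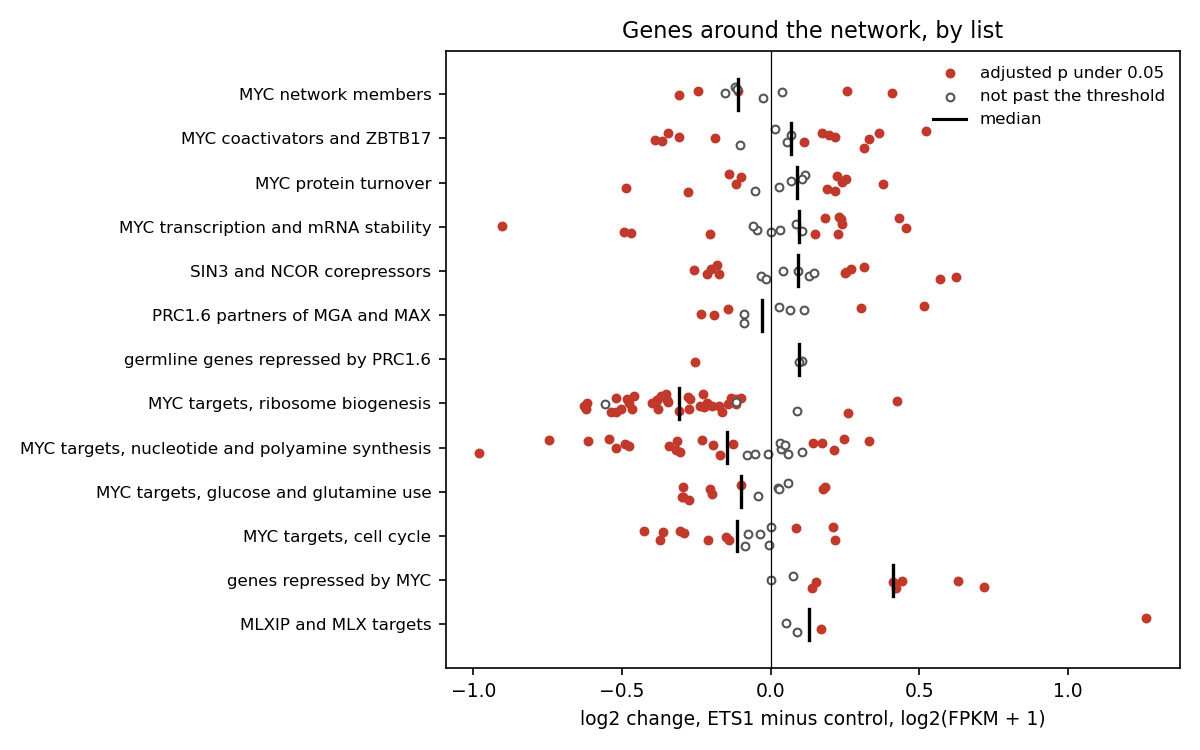
The log2 change (ETS1 minus control) of every tested gene in each list, red where the limma adjusted p is under 0.05 and open where not, with a black bar at the list's median. Ribosome biogenesis lies mostly left of 0 (median -0.31), genes repressed by MYC lie right of 0 (median 0.41), and the coactivators and corepressors spread to both sides.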

How the data were processed

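Total RNA of TE5 cells was sequenced in bulk, in 2 control and 2 ETS1 libraries. Values are FPKM per gene and library, computed by the authors, per the file headers. The authors' deposited comparison table adds a mean normalized count per gene, a signal averaged over the 4 libraries, log2 fold changes with standard errors, and p-value and adjusted p-value columns, all the authors' own, per the file headers. HISAT2, HTSeq, DESeq2 and the builds hg38 and GRCh38 are named in the submitters' processing notes, without versions or roles. Annotation and strand setting are not given in the sources used here.

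The rows of both tables were read by gene name. Genes with a mean of at least 1 FPKM were fitted with limma 3.58.1 in R 4.3.3 on log2(FPKM + 1), with a group term and an intensity trend (2 residual and 2.84 prior degrees of freedom), two-sided, adjusted by Benjamini-Hochberg over 14306 genes at 0.05. The fit was tested on simulated data. Whole reads were recovered from FPKM steps (99.7% of values within 0.05 of a whole number) for the voom alternative; for all members the recovered reads were whole. They number 40356722 and 44119605 in the controls and 57269982 and 56502877 in the ETS1 libraries. Positions, lengths and GC content come from GENCODE 29 on GRCh38 and promoters from RefSeq.

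The members and lists were chosen with earlier results of these data known. Besides the members, the text names ETS1, the 3 genes of each list with the largest called change, and TXNIP, ARRDC4, CDKN1A, ODC1, NCL and CDK4, with other genes marked or given as neighbours, overlapping genes or cell type markers. Some genes that the rule or the marker lists hold are not reported here. Alternatives were another pseudocount, other filters, trimmed-mean and quantile scaling, a replicate block, no intensity trend, voom, a stricter threshold, the authors' values, removal of the median change within 5 Mb, and leaving out each library; removal of a length and GC trend and lists outside chromosomes 8, 9 and 15 were added after seeing the data. Protein sequences were not used here.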

Additional observations from a re-analysis of the deposited data

How the results depend on the processing

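Of 157 values of single members under other settings, 133 kept their sign and their side of the threshold. MAX, MXD3 and MLXIP did so under all 16 tried for each. MGA turned to 0.23 with the local median removed. Leaving out 1 library, MXI1 ranged from -0.086 to 0.034, positive without control 1 and without ETS1 1 (0.0056), and MLX from -0.027 (without control 1) to 0.10. The MXI1 and MLX values that turned did not pass. The number of members called lower was 6 under voom on recovered reads, and 5 with the local median removed, 5 with the length and GC trend removed and 5 in the authors' deposited table. At a mean of at least 5 FPKM 1 member was called higher, because MNT was not tested there. Over all genes, 2562 were called higher at a mean of at least 5 FPKM and 2667 at an adjusted p under 0.01, and leaving out 1 library gave 2845 to 3962 higher and 2945 to 3720 lower. The log2 change of the repressor to MYC ratio, 0.21, ranged from 0.16 to 0.26, and none of these settings left out MXD3.

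Same-numbered libraries did not deviate together (correlation of deviations -0.0456 across genes), so the numbers were not taken to pair them. With the replicate block 3712 genes were higher and 3571 lower, and 2 members higher and 2 lower, as MXD4 lost the threshold. Of 408 list counts under other settings, 359 stayed within 1.5 times.

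With 2 libraries a group, the tests rest on a spread shared across genes. Depth limits MXD1 most, with 705 to 865 reads.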

Other observations

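The 3 tested genes whose profile over the 4 libraries was nearest to that of MYC, by Euclidean distance of centred log2(FPKM + 1), were AKT1S1 (0.0076), RBBP8 (0.0077) and FAM72A (0.0090). AKT1S1, which encodes a subunit of mTORC1, had 14.9 and 15.8 FPKM in the controls and 14.3 and 13.8 FPKM in the ETS1 libraries. RBBP8, a DNA end resection factor, had 27.03 and 28.99 FPKM against 26.19 and 25.20 FPKM. With 4 libraries such nearness is common, and 196 tested genes lay within 0.05 of MYC.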
